A study of Homo sapiens with 8 samples.

Results

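The 175 elements described here are the bound sites that the deposited table of a reporter assay puts in the class Shared_Pol2. They were chosen by that class name and by not being scrambled sequences, from 3095 elements in all. The table does not define its class names. After the series title they are read as sites bound by CEBPB in both cell lines, with RNA polymerase II at the site and away from promoters, and the title ties polymerase binding to whether a site is active. Each element stands in the table under its position and carries 4 barcodes of 9 bases. The scrambled sequence of a site bears the site's name, and 120 of the 175 sites have one in the table.

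In CRE-seq, short candidate elements drive a luciferase reporter on a plasmid, and a barcode in the reporter transcript tells which element the RNA came from. The plasmid library was transfected with FUGENE into HepG2, a human hepatocellular carcinoma line, and K562, a human leukaemia line that the labels call acute myelogenous leukemia. There were 2 independent transfections per line. DNA and RNA were taken from the cells of each transfection, which gives 8 libraries, and the libraries of a replicate experiment shared a sequencing lane. All elements were read on plasmids, so the values carry nothing of the chromatin around the sites.

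CEBPB is a basic leucine zipper factor that binds DNA as a dimer. It is known for its part in liver gene expression, the acute phase response and the differentiation of fat and myeloid cells. At sites away from promoters, RNA polymerase II is a feature of active enhancers, where it makes short-lived enhancer RNA. A reporter assay asks a narrower question, which is whether the sequence alone raises transcription from the reporter in a given cell.

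The 8 libraries held between 9965393 and 10193122 reads, and the sites held 7.59% to 7.7% of the reads of each DNA library. They held 20.2% and 20.9% of the HepG2 RNA reads and 11% and 11.5% of the K562 RNA reads. Of the 175 sites, 150 were tested because at least 3 of their barcodes had 10 or more reads in every DNA library. This rule used DNA only, so no site was kept for its RNA. Of the others, 8 had 2 such barcodes, 14 had 1 and 3 had none. A tested site had a median of 4244 DNA reads per library, between 146 and 17734, and the 102 tested scrambles of the class had a median of 4838.

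The barcodes are printed for the 4 sites on which the pattern between lines and barcodes is seen best: the highest site in HepG2, the highest in K562, the site with the largest excess in K562, and a site whose barcodes disagree. They are tags and not the regulatory sequences themselves, and all letters are in lower case because no base is singled out. The last of these sites had 3 passing barcodes and was chosen after its values were seen.
chr6:36634962 barcode 1: aagcaccgt
chr6:36634962 barcode 2: ctacagcaa
chr6:36634962 barcode 3: ggccgattg
chr6:36634962 barcode 4: tagctgcaa
chr16:66550768 barcode 1: ccgctacgt
chr16:66550768 barcode 2: gccttctga
chr16:66550768 barcode 3: tcggttgaa
chr16:66550768 barcode 4: tgctcgaaa
chr1:235012237 barcode 1: agtaggacg
chr1:235012237 barcode 2: cgagcatac
chr1:235012237 barcode 3: ctgctcgac
chr1:235012237 barcode 4: taccgcacc
chr19:18589811 barcode 1: cggttgtgg
chr19:18589811 barcode 2: ctgatacag
chr19:18589811 barcode 3: tctatcatg

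Values are log2 RNA/DNA from reads summed over the barcodes of an element, scaled so that scrambled sequences of all classes typically lie at 0. A value of 1 is therefore 2-fold above the typical scramble. For the barcodes of chr6:36634962, in the order printed, the mean over both transfections was 6.53, 6.69, 5.82 and 6.16 in HepG2. The same 4 barcodes gave 0.38, 0.39, 0.12 and 0.26 in K562, so every barcode of this site was high in HepG2 and near the scrambles in K562. The barcodes of chr16:66550768 gave 3.42, 3.54, 3.64 and 3.58 in HepG2 and 2.90, 2.98, 3.07 and 2.99 in K562. This site was high in both lines, and each of its barcodes was higher in HepG2. The barcodes of chr1:235012237 gave -0.15, -0.30, -0.16 and -0.49 in HepG2 and 1.89, 1.73, 1.70 and 1.60 in K562, which is the opposite order of lines. For chr19:18589811 the first barcode gave 4.63 in HepG2, while the others gave -0.65 and 0.25, so its sum rests on that barcode.

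The sites as a group lay above their scrambles in both lines, and further above in HepG2. In HepG2 the median site was at 0.40 and 0.47 in the 2 transfections, against 0.00 in both for the 102 scrambles of the class. In K562 it was at 0.24 and 0.28, against -0.02 and -0.01 for the scrambles. The upper quartile of the sites stood further from that of the scrambles than the lower quartile did. For means over transfections, the middle 50% of sites ran from 0.04 to 1.69 in HepG2 and from -0.03 to 0.84 in K562, and the highest sites reached 6.33 and 2.98. The middle 50% of the scrambles ran from -0.20 to 0.19 in HepG2 and from -0.17 to 0.17 in K562. The lowest sites were at -0.55 and -2.40, and the lowest scrambles of the class were lower still, at -0.64 and -2.79. With scaling on all tested elements in place of scrambles the medians over transfections moved from 0.46 to 0.37 in HepG2 and from 0.23 to 0.19 in K562.

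An element was called active when edgeR's quasi-likelihood test of RNA against DNA gave a Benjamini-Hochberg adjusted p under 0.05 and its value lay above the 95th percentile of all tested scrambles. That percentile was 0.66 in HepG2, or 1.58-fold, and 0.52 in K562, or 1.44-fold. In HepG2 55 of the 150 sites were active, or 36.7%, against 14% of all 2332 tested elements of the series, scrambles included. In K562 49 were active, or 32.7%, against 8.15% of all tested elements. Of the 102 scrambles of the class, 4 were active in each line, or 3.92%. The limit is itself a percentile of the scrambles of all classes, so a low share among scrambles follows largely from the rule. A further 22 sites in HepG2 and 10 in K562 passed the adjusted p above 0 without passing the percentile. Some scrambles of the class did so too in each line, and the matching shares of all tested elements were not counted.

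The active sites differed more in strength between lines than in number. Their median was 1.96 in HepG2, or 3.89-fold, and 1.15 in K562, or 2.22-fold. In HepG2 46 of the 55 were above 1, 25 above 2 and 5 above 4. In K562 31 of the 49 were above 1, 7 above 2 and none above 4.

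The 5 highest active sites in HepG2 were far above every scramble of the class, the highest of which was at 1.08. Site chr6:36634962 was at 6.35 and 6.31 in the HepG2 transfections and at 0.31 and 0.26 in those of K562. Its fitted value in HepG2 was 6.33 ± 0.06 (SE), or 80.7-fold, with an edgeR adjusted p of 3.88e-12. This site alone took 24.4% and 24% of the sites' reads in the HepG2 RNA libraries, against 2.28% and 2.35% in the DNA libraries of the same cells. Site chr10:80218871 was at 5.20 and 5.33 in HepG2 and at 2.20 and 2.19 in K562. Site chr1:160983700 was at 5.02 and 5.42 in HepG2 and at 0.66 and 1.39 in K562, where its transfections were further apart. The order of these last 2 sites in HepG2 is not settled, because their transfection values overlap. Site chr6:7058754, with fewer reads (782 and 880 DNA reads in the HepG2 libraries), was at 4.63 and 4.35 in HepG2 and at 0.96 and 1.37 in K562. Site chr2:11970465 was at 4.23 and 4.43 in HepG2 and at 1.63 and 1.72 in K562, so it too overlaps its neighbour in the order. The adjusted p of the 5 sites in HepG2 lay between 3.88e-12 and 5.81e-08 by edgeR. All but chr6:36634962 were also active in K562.

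The 5 highest active sites in K562 were high in HepG2 as well. Site chr16:66550768 was at 2.98 in both K562 transfections and at 3.48 and 3.61 in HepG2. Its fitted K562 value was 2.98 ± 0.09 (SE), or 7.89-fold, with an edgeR adjusted p of 2.27e-08. Site chr2:72110231 was at 2.84 and 2.89 in K562 and at 1.89 and 1.85 in HepG2. It came closest to chr16:66550768 in K562 and stood 0.99 lower in HepG2 than in K562. Site chr5:5351641 was at 2.38 and 2.43 in K562 and at 2.30 and 2.45 in HepG2. Site chr20:22392623 was at 2.35 and 2.33 in K562 and at 1.82 and 1.91 in HepG2. The fifth was chr10:80218871, described above for HepG2. The edgeR adjusted p of the 5 in K562 lay between 1e-08 and 5.04e-08.

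A total of 37 sites were active in both lines, which is 24.7% of those tested, against 5.15% of all tested elements. This is 37 of 55 sites active in HepG2 and 37 of 49 active in K562. A further 18 were active in HepG2 and not in K562, or 12%, against 8.88% of all tested elements. The reverse held for 12, or 8%, against 3%, and 83 were active in neither line, or 55.3%, against 83% of all tested elements. These shares of all tested elements include the scrambles. Among bound sites alone, 12.1% of Shared_NOPol2, 24.7% of HepG2_Pol2 and 11.4% of HepG2_NOPol2 were active in HepG2 only. It was 4.35% in K562_Pol2 and 4.97% in K562_NOPol2. Activity in K562 only held for 3.45%, 1.33%, 4.36%, 12% and 2.48% in the same order of classes. With the 99th percentile of the scrambles as the limit, 24 Shared_Pol2 sites were active in both. Across the 150 sites the mean values of the lines had a Pearson correlation of 0.53 and a Spearman correlation of 0.50, while the transfections of a line correlated at 0.97 and 0.89 in HepG2 and at 0.78 and 0.76 in K562. These correlations are descriptions over sites measured in the same libraries.

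Sites active in both lines were mostly stronger in HepG2. Their median was 2.22 in HepG2 and 1.15 in K562, and 31 of the 37 had the higher fitted value in HepG2. The difference between lines, tested as an interaction in the same edgeR fit, was called toward HepG2 for 27, toward K562 for 3 and for neither line in 7. A lean toward HepG2 was seen in other classes of bound sites too, though not in Shared_NOPol2. Among their sites active in both lines, the call was toward HepG2 for 13 of 24 in HepG2_Pol2 and 8 of 19 in K562_Pol2. It was so for 1 of 9 in Shared_NOPol2, 5 of 10 in HepG2_NOPol2 and 5 of 5 in K562_NOPol2. Toward K562 the counts were 1, 4, 2, 0 and 0 in the same order of classes. Site chr5:5351641 differed by -0.03 ± 0.09 (SE) between HepG2 and K562, with an edgeR adjusted p of 0.869. Site chr14:62019762 was at 2.26 and 2.28 in HepG2 and at 2.16 and 2.12 in K562, a difference of 0.13 ± 0.13 (SE) with an edgeR adjusted p of 0.597. These sites gave close values in the lines, although a p above the limit does not show equality. Site chr14:102414376 was at 2.71 and 2.76 in HepG2 and at 2.11 and 2.18 in K562. Its difference of 0.59 ± 0.08 (SE) passed with an edgeR adjusted p of 0.000751. For chr16:66550768 the difference was 0.57 ± 0.11 (SE) with an edgeR adjusted p of 0.00802. It was 0.50 with an adjusted p of 0.0543 without the second HepG2 transfection and 0.56 with 0.0544 without the second K562 transfection. For chr20:22392623 the difference of -0.48 ± 0.10 (SE) had an edgeR adjusted p of 0.0126. Its adjusted p was 0.0677 without the first HepG2 transfection, and 0.067 and 0.0649 without the first and the second K562 transfection. It was also lost with no minimum count per barcode, with an adjusted p of 0.0649, and without the highest barcode, with 0.0576.

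Over all 150 sites the difference between lines was called toward HepG2 for 50, or 33.3%, against 12.8% of all tested elements, scrambles included. It was called toward K562 for 13, or 8.67%, against 3.95%. The second count was 7 without the first HepG2 transfection and 8 without the second K562 transfection. Among the other bound sites the share toward HepG2 was 28.9% in HepG2_Pol2, 12.1% in Shared_NOPol2 and 7.61% in K562_Pol2. It was 13.8% in HepG2_NOPol2 and 11.2% in K562_NOPol2. Toward K562 it was 1.59%, 4.31%, 14.7%, 3.02% and 4.97% in the same order of classes. Of the 18 Shared_Pol2 sites active in HepG2 alone, 16 were called higher in HepG2 by the interaction. Their median was 1.68 in HepG2 and 0.13 in K562, where they ran from -0.53 to 0.41. Most sites active in HepG2 alone were called higher there in the other classes of bound sites as well. The counts were 83 of 93 in HepG2_Pol2, 27 of 34 in HepG2_NOPol2 and 10 of 14 in Shared_NOPol2. They were 6 of 8 in K562_Pol2 and 5 of 8 in K562_NOPol2. Of the 12 Shared_Pol2 sites active in K562 alone, 7 were called higher in K562. Their median was 1.14 in K562 and 0.32 in HepG2, where they ran from -0.34 to 0.70, so at least the highest failed in HepG2 on its adjusted p and not on the percentile. In every class the sites active in a single line were chosen by calls from the same fit as the interaction. Their medians and the counts called higher therefore follow in part from that choice. Another 10 sites were active in neither line and still differed between the lines. The matching shares of all tested elements were not counted for these 10 sites or for the 7 above.

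The largest differences toward HepG2 belonged to chr6:36634962 (6.05 ± 0.07, SE), chr1:160983700 (4.17 ± 0.26, SE), chr6:7058754 (3.31 ± 0.20, SE) and chr1:119506387. The last was at 3.53 and 3.48 in HepG2 and at 0.44 and 0.35 in K562, a difference of 3.11 ± 0.15 (SE). Their edgeR adjusted p lay between 3.36e-11 and 4.62e-06. In none of the 4 sites did a transfection of K562 reach a transfection of HepG2, which follows largely from their choice as the largest differences. Toward K562 the differences were smaller. Site chr1:235012237 was at 1.80 and 1.65 in K562 and at -0.20 and -0.34 in HepG2, a difference of -1.99 ± 0.14 (SE, HepG2 minus K562). Site chr6:3410120 was at 1.41 and 1.51 in K562 and at -0.53 and -0.16 in HepG2. It differed by -1.80 ± 0.18 (SE) and, like the site before it, was above 0 in K562 alone. Site chr1:182269290 was at 1.78 and 1.96 in K562 and at 0.44 and 0.37 in HepG2, a difference of -1.47 ± 0.10 (SE). Site chr18:47951634 was at 1.52 and 1.69 in K562 and at 0.29 and 0.12 in HepG2, a difference of -1.40 ± 0.14 (SE). The edgeR adjusted p of these 4 lay between 7.35e-06 and 0.000102. The lines did not overlap for any of them, which again follows largely from how they were chosen.

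The scramble of a site is the control made for that site. For 98 sites both the site and its scramble were tested, and for 52 tested sites no scramble was. In HepG2 48 of the 98 lay above their scramble in edgeR's test of the pair, or 49%, against 28.6% of all 901 tested pairs, and 6 lay below, or 6.12%, against 7.77% of all pairs. In K562 32 lay above, or 32.7%, against 13.7% of all pairs, and 1 lay below, or 1.02%, against 3.88%. The counts below changed most with the samples. The HepG2 count below was 1 and 2 without the first and the second HepG2 transfection, and the K562 count below was 4 without the first K562 transfection. The median of site minus scramble was 0.49 and 0.54 in the HepG2 transfections and 0.20 and 0.30 in those of K562. The site was the higher of the pair in 76 of 98 pairs in HepG2, or 77.6%, against 63.4% of all pairs, and in 66 in K562, or 67.3%, against 58.8%.

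The pair test and the call of activity met in most cases, although they share the reads of the site and are not independent. All 35 sites active in HepG2 that had a tested scramble lay above it, and 13 more sites lay above theirs without being active. In K562 this held for 30 of 34, and 2 more sites lay above without being active. Where a site lay above its scramble, the median difference was 1.56 in HepG2, or 2.95-fold, and 1.31 in K562, or 2.48-fold. In 36 of 98 pairs every barcode of the site was above every barcode of its scramble in HepG2, or 36.7%, against 21.1% of all pairs. In K562 this held for 32 pairs, or 32.7%, against 13.7%. Every barcode was below in 4 pairs in each line, or 4.08%, against 2.77% of all pairs in HepG2 and 4.22% in K562. A site's value did not follow that of its own scramble. Their Pearson correlation was -0.03 in HepG2 and -0.08 in K562 over the 98 pairs, which share libraries.

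Among sites with a tested scramble, the widest gaps between site and scramble in HepG2 were those of chr1:160983700, chr10:80218871, chr2:11970465 and chr16:66550768. The high sites chr6:36634962, chr6:7058754, chr1:119506387 and chr5:5351641 had no tested scramble, so they have no gap in either line. The scramble of chr1:160983700 was at -0.49 and -0.23 in HepG2, and the gap was 5.58 ± 0.28 (SE) with an edgeR adjusted p of 1.09e-06. In K562 the gap of this site was 1.08 ± 0.26 (SE), with an edgeR adjusted p of 0.0261, and the call was lost without the first HepG2 transfection (gap 1.08), the second HepG2 transfection (gap 1.08) or the second K562 transfection (gap 0.67), and with no minimum count per barcode (gap 1.08, adjusted p 0.0517). The scramble of chr10:80218871 was at 0.01 and -0.13 in HepG2, and the gap was 5.32 ± 0.13 (SE). The scramble of chr2:11970465 was at 0.04 and 0.05 in HepG2, and the gap was 4.28 ± 0.12 (SE). The widest gaps in K562 were those of chr16:66550768, chr2:72110231, chr14:102414376 and chr20:22392623. For chr16:66550768 the scramble was at 0.06 and -0.07 in K562 and the gap was 2.99 ± 0.15 (SE), and in HepG2 it was 3.84 ± 0.16 (SE). For chr2:72110231 the gap was 2.65 ± 0.08 (SE) in K562 and 1.77 ± 0.08 (SE) in HepG2. For chr14:102414376 it was 2.48 ± 0.11 (SE) in K562 and 2.96 ± 0.11 (SE) in HepG2. For chr20:22392623 the gap was 2.41 ± 0.15 (SE) in K562 but 1.22 ± 0.15 (SE) in HepG2, where its scramble was itself at 0.70 and 0.58.

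Where a site lay below its scramble, the scramble was in some cases the active sequence. The scramble of chr12:58259132 was at 0.68 and 0.88 in HepG2 and at 0.98 and 1.15 in K562, and it was active in both lines. The site itself was at -0.18 and -0.07 in HepG2 and at 0.00 and -0.21 in K562. The gap was -0.90 ± 0.17 (SE) in HepG2, with an edgeR adjusted p of 0.00306, and -1.17 ± 0.17 (SE) in K562, with 0.00171. The HepG2 gap was -0.95 with an adjusted p of 0.0938 without the first HepG2 transfection and -0.86 with 0.117 without the second. The scramble of chr16:88837409 was the highest scramble of the class in both lines, at 1.08 in both HepG2 transfections and at 1.31 and 1.05 in K562. The site was at -0.32 and 0.11 in HepG2 and at 0.97 and -0.18 in K562, so its K562 transfections disagreed. The gap in HepG2 was -1.18 ± 0.26 (SE) with an edgeR adjusted p of 0.00773. It was -0.97 with an adjusted p of 0.232 without the first HepG2 transfection and -1.40 with 0.0986 without the second. In K562, of the alternatives run, the gap passed only without the first K562 transfection, at -1.22 with an adjusted p of 0.00812.

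Few sites lay below the scrambles as a whole. By the mirror rule, with limits at the 5th percentile of -0.45 in HepG2 and -0.52 in K562, 3 sites were repressed in HepG2, or 2%, against 2.44% of all tested elements. In K562 1 site was, or 0.667%, against 1.24% of all tested elements. Both shares are close to the background, and the counts are too small to tell them from it. Site chr13:114445111 was at -0.58 and -0.53 in HepG2 and at -0.05 and 0.16 in K562, with an edgeR adjusted p of 0.00273 in HepG2, and its scramble was at 0.13 and -0.10 there. The adjusted p was 0.0964 without the first HepG2 transfection and 0.0683 without the second, and the gap to the scramble of -0.57 was lost without either as well, with an adjusted p of 0.292 and 0.0996. Without the highest barcode both calls were lost too, at -0.43 for the site and -0.44 for the gap. Site chr16:30825626 was at -0.48 and -0.53 in HepG2 and at -0.06 and -0.31 in K562. Its scramble was equally low in HepG2, at -0.60 and -0.47, and the gap was 0.03 ± 0.11 (SE). The call of this site was lost without the second HepG2 transfection, at -0.48, and without the highest barcode, at -0.39. Site chr5:138855205, named because the count is small, was at -0.54 and -0.43 in HepG2 and near the scrambles in K562, at 0.00 and -0.17. The HepG2 count was 1 without the first HepG2 transfection and 0 without the second, and it was 0 with the 1st percentile of the scrambles as the limit. In K562 the repressed site was chr4:185305231, at -0.47 and -0.58. In HepG2 the same site was active, at 1.72 and 1.60, and it differed by 2.18 ± 0.10 (SE) between the lines with an edgeR adjusted p of 5.03e-07. Its K562 call was lost without either K562 transfection, at -0.58 without the first and -0.46 without the second, and in the fit with a replicate block, at -0.53. It was also lost with no minimum count per barcode, at -0.52, and without the highest barcode, at -0.51. The K562 count was 2 without the first K562 transfection, 0 without the second, 0 with the replicate block and 0 with the 1st percentile as the limit.

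Close to the limits the calls turned on small differences. In HepG2 the active site nearest above the percentile was chr20:34770375, at 0.60 and 0.72, and the tested site nearest below was chr10:73648568, at 0.67 and 0.59. In K562 the nearest above was chr2:178052463, at 0.40 and 0.64, and the nearest below was chr16:88837409, at 0.97 and -0.18. Transfection values of the sites above and below overlap in both lines. The HepG2 call of chr20:34770375 was lost without either HepG2 transfection, at 0.72 without the first and 0.61 without the second. The K562 call of chr2:178052463 was lost without either K562 transfection, at 0.64 without the first and 0.41 without the second. Both of these K562 values of chr2:178052463 failed on the percentile recomputed without the transfection in question. Site chr10:73648568 was active in K562, at 0.54 and 0.60, and lost that call without either K562 transfection, at 0.60 and 0.56.

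Barcodes of an element share its sequence and are repeat readings of it, not replicates of the transfection. Over the barcodes of an active site the median SD was 0.27 in HepG2 and 0.26 in K562. It was 0.36 and 0.32 for the other tested sites and 0.30 and 0.29 for the scrambles of the class. In 52 of the 55 sites active in HepG2 every barcode was above 0, and in 44 every barcode was above the percentile. In K562 this held for 45 and 32 of the 49. The call uses the sum of the same barcodes, so these counts follow in part from it. Every barcode was above 0 in 23 of the 95 other sites and 13 of the 102 scrambles in HepG2. In K562 this held for 17 of 101 other sites and 13 of 102 scrambles. Standard errors in the text come from summed reads and do not hold this spread. A few calls were lost when the highest barcode of each element was left out, and these were singled out after their values were seen. Site chr19:18589811 was at 2.45 and 2.82 in HepG2, yet its fitted value went from 2.64 to -0.27 without its highest barcode. That barcode had 59 and 52 DNA reads and 854 and 967 RNA reads in HepG2, and 79 and 57 DNA reads and 398 and 425 RNA reads in K562. The K562 call of the site was lost as well, from 1.57 to 0.84. Site chr2:43245536 went from 1.96 to 0.35 in HepG2, with barcodes between -0.92 and 3.74. Site chr9:131058634 went from 1.85 to 0.37, with barcodes between -0.18 and 3.13. The other HepG2 calls lost in this way were chr19:47818730 (from 0.69 to 0.52), chr20:34770375 (from 0.67 to 0.55) and chr22:25125033. The last also lost its K562 call, though its value did not fall, since its adjusted p went from 0.000727 to 0.104 in HepG2 and from 0.000609 to 0.0627 in K562 by edgeR.

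Sites with more DNA reads were called active more often. Of the 75 sites above the median in DNA reads, 33 were active in HepG2, or 44%, and 29 in K562, or 38.7%. Of the 75 at or below it, 22 were active in HepG2, or 29.3%, and 20 in K562, or 26.7%. The median value was also higher in the first set, at 0.56 against 0.24 in HepG2 and 0.33 against 0.14 in K562. The Pearson correlation of log2 DNA reads with the value was 0.14 in HepG2 and 0.23 in K562 over 150 sites of the same libraries. The part of depth in these calls was not tested.

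In position the sites were spread over the genome, with at most 17 on a chromosome, and 26 had another site of any class within 10000 bases. In 3 pairs of neighbours both sites were of this class. The sites chr1:235010475 and chr1:235012237 lie 1762 bases apart. The first was at 0.23 and 0.02 in HepG2 and at -0.82 and 0.04 in K562 and was active in neither line, while the second was active in K562 as given above. The sites chr11:34675666 and chr11:34676533, 867 bases apart, were active in neither line, with means of -0.25 for both in HepG2 and of -0.09 and -0.12 in K562. The sites chr20:343211 and chr20:352563, 9352 bases apart, were both active in HepG2. The first was at 3.62 and 3.81 in HepG2 and at 1.21 and 1.04 in K562, where it was active. The second was at 1.74 and 1.97 in HepG2 and at 0.19 and 0.56 in K562, where it was not. The transfection values of the chr11 neighbours overlapped in both lines, and those of the other pairs did not overlap in K562.

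Set beside the other classes of bound sites, the values are a description, since sites are not replicates. Each transfection gives a difference of class medians within the same libraries, and an exact two-sided sign-flip test over 4 such differences cannot go below p = 0.125. Of the sites bound in both lines without polymerase (Shared_NOPol2), 19.8% of 116 were active in HepG2, 11.2% in K562 and 7.76% in both. The median Shared_Pol2 site exceeded theirs by 0.25 and 0.37 in the HepG2 transfections and by 0.20 and 0.23 in those of K562. Of the 377 sites of the class HepG2_Pol2, 31% were active in HepG2, 7.69% in K562 and 6.37% in both, and the median Shared_Pol2 site exceeded theirs by 0.15 and 0.23 in HepG2 and by 0.18 and 0.21 in K562. Of the 184 sites of the class K562_Pol2, 14.7% were active in HepG2, 22.3% in K562 and 10.3% in both. The median Shared_Pol2 site exceeded theirs by 0.33 and 0.37 in HepG2 and by 0.07 and 0.10 in K562. The difference was above 0 in each of the 4 transfections for all 3 classes. DNA reads differed with class too, with medians of 3072, 3740 and 3081 per library in these 3 classes against 4244, and the part of this in the shares was not tested.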

How the data were processed

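Barcodes were counted in DNA and RNA of the same transfected cells, in 2 transfections of each line. The deposited values are raw read counts of each barcode, per the file headers. The submitters' processing notes list cutadapt and hg19 without a role. The program that counted barcodes, not given in the sources used here, stays unnamed. The close library totals may mean that depth was equalised, which the sources do not say. Positions are those in the names of the sites, with no build stated beside them. Element sequences and a gene annotation of hg19 were not used here, so no motif was searched and no site was assigned to a gene.

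Barcodes with at least 10 reads in each DNA library were kept, and elements with at least 3 of them were tested on summed reads. Library sizes were reads in tested elements, with TMM computed on the scrambles. The tests were edgeR's quasi-likelihood tests (edgeR 4.0.16, run in R 4.3.3), fitted to the 8 libraries as 4 groups with no block and adjusted by Benjamini-Hochberg over all 2332 elements. Site and scramble were compared in a fit of 901 pairs with the library as a block. The lines share an estimate of the spread, which can understate that of K562, where transfections correlated less. Values per transfection use a pseudocount of 1. The fits of elements and of pairs were run on simulated counts with effects in HepG2 RNA only. That run did not cover the calls by percentile, the pairing of replicates or a wider spread in K562.

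The labels tie a replicate number to a replicate experiment, pooled in a lane, so the numbers pair the samples. Libraries of the same number deviated together over 2332 elements, with r = 0.30 between DNA and RNA of HepG2 and 0.24 in K562. This ran across the lines too, with 0.58 between their DNA, 0.17 between their RNA, and 0.37 and 0.23 between RNA and DNA of different lines. Alternatives were other count minimums, scaling on all elements, leaving out the highest barcode or a transfection, DESeq2 1.42.0, a replicate block and the 99th percentile. The elements and lists were chosen with earlier results of these data known. Elements were named by rank: in each line the 5 highest active, the 2 lowest repressed, the 4 widest gaps above and 3 below the scramble, the highest scramble of the class and the site next to the limit on each side. In addition the 5 sites with the highest lower value among those active in both lines and the 4 largest differences between lines in each direction were named. Sites named outside this rule are marked, except in the account of neighbours, which names every pair found.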

Additional observations from a re-analysis of the deposited data

Results flagged for a closer look

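The effect of a site differed between the cell lines, by the interaction test of edgeR adjusted over all tested elements, for 17 of the named sites. The difference of log2 RNA/DNA, HepG2 minus K562, was 6.05 for chr6:36634962, 4.17 for chr1:160983700, 3.31 for chr6:7058754, 3.11 for chr1:119506387 and 3.08 for chr10:80218871. It was 2.66 for chr2:11970465, 2.18 for chr4:185305231 and 1.21 for chr2:178052463. It was 0.59 for chr14:102414376 and 0.57 for chr16:66550768. Toward K562 it was -1.99 for chr1:235012237, -1.80 for chr6:3410120, -1.47 for chr1:182269290 and -1.40 for chr18:47951634. It was -0.99 for chr2:72110231, -0.61 for chr13:114445111 and -0.48 for chr20:22392623. Some of these sites were named because of this difference, so their presence here follows from the rule that named them. The difference of chr13:114445111 had an adjusted p of 0.0172 with edgeR, and was lost without either HepG2 transfection or without the second K562 transfection, with an adjusted p of 0.0614 to 0.174. Without the highest barcode it was -0.39, with an adjusted p of 0.195.

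The 25 sites left out of the tests for too few DNA reads, with a median of 155.5 DNA reads per library, also held values above the percentile of the scrambles. In HepG2 7 of them were above it in both transfections, and in K562 2 were. None of the 18 untested scrambles of the class was, in either line. The highest untested site in HepG2 was chr12:57271867, at 2.96 and 2.67 there and at -0.14 and -0.68 in K562. In K562 the 2 sites were chr22:41704589, at 2.18 and 2.37, and chr5:43007757, at 1.34 and 1.17. In HepG2 these were at 1.46 and 1.55 and at 1.34 and 1.15. These sites rest on few reads, for example 82 and 81 DNA reads for chr22:41704589 in the HepG2 libraries, and were not tested. How often untested elements of the other classes lay above the percentile was not counted. The counts of untested sites therefore have no share of the series beside them.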

How the results depend on the processing

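Over the alternatives 42 to 56 sites were active in HepG2 and 35 to 51 in K562, and 38 and 32 were active in every one of 11 alternatives. Of the values of named elements under alternatives 1010 kept their side of the limit, 55 lost the call and 7 gained it. The sign differed from the reported value in 17, of 12 results, and in 0 of these was either value called. With TMM on all tested elements the median site was at 0.37 in HepG2 and 0.19 in K562. Without the highest barcode these medians were 0.35 and 0.30, the median of site minus scramble in HepG2 was 0.39, 3 sites lay below their scramble in HepG2, and 1 site was repressed in HepG2 and 0 in K562. With the 99th percentile 24 sites were active in both lines and 0 were repressed in either line. With no minimum count 0 were repressed in K562. The replicate block, which follows the pairing of DNA and RNA by transfection, left 0 repressed in K562, and the active counts were 55 in HepG2 and 50 in K562. Leaving out 1 transfection gave 0 to 3 repressed in HepG2, 0 to 2 in K562, 7 to 12 higher in K562, 1 to 9 below their scramble in HepG2, 1 to 4 in K562, medians of 0.40 to 0.47 in HepG2 and 0.23 to 0.28 in K562, and a median of site minus scramble of 0.48 to 0.54 in HepG2. The pair test was not run with DESeq2. With 2 transfections per line and a shared spread, calls near the limit turned with the setting in both lines. How small an effect each depth could show was not tested, and neither were the causes of these changes.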
